A study of Mus musculus with 4 samples.

Results

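Aminoacyl-tRNA synthetases are the enzymes that load each tRNA with its amino acid. The 36 members described here were the genes in the deposited tables whose annotated mouse symbol (GENCODE vM21) belonged to a given list of 20 cytosolic and 16 mitochondrial enzymes, out of 22520 genes in all. All 36 were kept after the repair of the tables and all 36 passed the filter on low counts. RNA-seq was done on lineage-negative bone marrow, that is, marrow left after magnetic removal of cells with markers of mature blood lineages, from 2 Cyba-/- mice (Cyba KO) and 2 wild type mice (WT), all C57BL/6. Cyba encodes p22phox, the membrane subunit that several NADPH oxidases need to make superoxide. The title of the series asks about stem cell numbers, a myeloid bias and B-cell differentiation. The sources used here do not say how the allele was made, or give the age or sex of the mice. A library was made from 1 mouse, so the tests measure the spread between 2 mice per genotype, and 2 against 2 mice cannot give an exact two-sided permutation p below 0.333.

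Protein synthesis in the cytosol and in mitochondria uses separate sets of tRNAs, and most amino acids have a separate nuclear gene for the synthetase of each compartment. In mammals, 8 of the cytosolic synthetase polypeptides are held with 3 scaffold proteins in the multi-synthetase complex, and the others act outside it. Many cytosolic synthetase genes, unlike most mitochondrial ones, are known targets of ATF4, the transcription factor of the amino acid and integrated stress response. Levels are given as CPM, read counts scaled to the size of each library with TMM factors. Kept genes held 23103136 and 22857835 reads in Cyba KO replicates 1 and 2, and 23681537 and 22394601 reads in WT replicates 1 and 2. Cyba itself stood at 1.25 and 1.37 CPM in the Cyba KO libraries, against 56.8 and 39.0 CPM in the WT libraries, and was thus lower where the labels name the knockout. Its log2 fold change was -5.19 (SE 0.28), with an adjusted p of 0.314 from edgeR's quasi-likelihood test and of 1.37e-43 from DESeq2.

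Promoters are shown for 3 cytosolic members and 1 mitochondrial member because they differ in matches to TGATGNAA, the motif bound by ATF4 with a C/EBP partner. The set was chosen after values and matches were seen. Each sequence is the RefSeq window (GRCm38.p6) from 250 bases before to 50 bases after the annotated start, in the direction of transcription, with capitals marking the motif on either strand. Iars lies at chr13:49681880-49682179 on the plus strand, Gars at chr6:55037751-55038050 on the plus strand, Tars at chr15:11399609-11399908 on the minus strand and Iars2 at chr1:185329352-185329651 on the minus strand.
Iars: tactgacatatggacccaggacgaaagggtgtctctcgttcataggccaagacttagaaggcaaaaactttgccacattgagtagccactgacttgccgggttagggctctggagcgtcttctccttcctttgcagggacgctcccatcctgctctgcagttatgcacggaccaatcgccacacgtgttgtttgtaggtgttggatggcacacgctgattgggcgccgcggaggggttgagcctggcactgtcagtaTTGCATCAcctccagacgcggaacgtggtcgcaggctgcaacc
Gars: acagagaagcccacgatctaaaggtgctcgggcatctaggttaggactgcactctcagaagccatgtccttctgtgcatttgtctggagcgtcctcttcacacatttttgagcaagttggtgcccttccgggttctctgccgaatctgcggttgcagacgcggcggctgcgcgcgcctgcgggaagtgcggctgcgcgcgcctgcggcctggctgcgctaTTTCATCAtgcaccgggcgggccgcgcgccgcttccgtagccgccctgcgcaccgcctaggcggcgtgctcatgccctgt
Tars: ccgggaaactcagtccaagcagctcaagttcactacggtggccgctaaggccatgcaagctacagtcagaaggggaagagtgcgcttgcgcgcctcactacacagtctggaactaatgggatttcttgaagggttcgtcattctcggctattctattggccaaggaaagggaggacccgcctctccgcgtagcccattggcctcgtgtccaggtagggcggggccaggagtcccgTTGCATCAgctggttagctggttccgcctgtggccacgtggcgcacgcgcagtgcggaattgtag
Iars2: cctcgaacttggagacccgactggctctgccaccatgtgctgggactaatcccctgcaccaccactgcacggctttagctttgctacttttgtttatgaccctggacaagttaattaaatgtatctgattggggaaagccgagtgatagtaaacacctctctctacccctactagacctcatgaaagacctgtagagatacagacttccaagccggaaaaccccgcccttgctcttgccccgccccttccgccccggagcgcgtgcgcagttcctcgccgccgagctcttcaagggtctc
The motif starts at base 8 after the start in Iars, 30 bases before it in Gars and 15 bases before it in Tars, each time as its reverse complement, and Iars2 has none in this window. Promoter windows were matched for 13 cytosolic and 14 mitochondrial genes. TGATGNAA was found in 5 of the 13 cytosolic windows (38.5%: Aars, Gars, Iars, Tars and Yars), in 0 of the 14 mitochondrial genes and in 4.51% of 27025 genes with a window. The E-box CACGTG, a motif of MYC and related factors, was found in 4 cytosolic windows (30.8%: Aars, Farsb, Iars and Tars), in 1 mitochondrial gene (7.1%, Ears2) and in 8.09% of all genes. The NRF1 motif, searched as its full palindrome, was found in 0 genes of either class against 1.07% of all genes. The ETS motif CCGGAAGT was found in 2 cytosolic genes (15.4%, Farsa and Mars) and 1 mitochondrial gene (7.1%, Rars2), against 4.31% of all genes. Both strands were searched, no motif contains another, and a match describes these letters only.

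The cytosolic synthetases were lower in the Cyba KO libraries in every case, by small amounts, and no single gene passed the test. All 20 had a log2 fold change below 0, with a median of -0.24, or 15.6% lower, and a range from -0.44 (Hars, histidine) to -0.07 (Nars, asparagine). Over all 13834 tested genes the median was -0.01 and 51.0% lay below 0. Among the 4099 genes at least as high as the lowest cytosolic member, a background chosen after the data were seen, the median was -0.06 and 61.8% lay below 0. Both Cyba KO libraries lay below both WT libraries for 16 of the 20 cytosolic genes, against 16.1% of all tested genes and 23.2% of those at least as high. With edgeR's quasi-likelihood test and Benjamini-Hochberg adjustment over all genes 0 of the 36 synthetases passed, as 0.0% of all genes did. Cyba itself did not pass it either (edgeR adjusted p = 0.314), so a missing call here does not speak to the size of a difference. DESeq2 called 0 of the 36 and 0.229% of all genes. At an unadjusted edgeR p under 0.05, 2 cytosolic members were lower, Iars and Cars, and so were 0.47% of all tested genes. No member lay above both WT libraries in both Cyba KO libraries, where 17.6% of all tested genes did.

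The cytosolic members with the smallest p had log2 fold changes between -0.42 and -0.23. Iars (isoleucine; ENSMUSG00000037851, chr13:49682100-49734267, plus strand) stood at 175 and 188 CPM in Cyba KO mice, against 226 and 246 CPM in WT mice. Both Cyba KO values were below both WT values, and the difference had a log2 fold change of -0.38 (SE 0.12, edgeR adjusted p = 0.843). Cars (cysteine) stood at 54.6 and 52.2 CPM in Cyba KO mice and 65.1 and 77.7 CPM in WT mice. Its groups did not overlap, at a log2 fold change of -0.42 (SE 0.14, edgeR adjusted p = 0.843). Eprs, which joins the enzymes for glutamate and proline in 1 polypeptide, stood at 277 and 309.8 CPM in Cyba KO mice, against 343 and 394 CPM in WT mice. Its groups were also separate (log2 fold change -0.33, SE 0.14). Gars, which charges glycine in cytosol and mitochondria from 1 gene, stood at 149 and 175 CPM in Cyba KO mice and 187 and 222 CPM in WT mice (log2 fold change -0.34, SE 0.16). Tars (threonine) stood at 103 and 109.6 CPM in Cyba KO mice and 122 and 128 CPM in WT mice (log2 fold change -0.23, SE 0.11). For Gars and Tars, too, the WT libraries were both above the Cyba KO libraries. Kars, the other gene that serves both compartments (lysine), stood at 207 and 219 CPM in Cyba KO mice and 229.8 and 272 CPM in WT mice (log2 fold change -0.23, SE 0.14). Without WT replicate 2 the log2 fold change was -0.21 for Gars and -0.11 for Kars, and without Cyba KO replicate 1 it was -0.22 for Gars. Without Kars and Gars the cytosolic median was again -0.24.

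Hars had the lowest log2 fold change of all members but a wide spread within genotypes. It stood at 104 and 152 CPM in Cyba KO mice, against 136 and 211 CPM in WT mice (log2 fold change -0.44, SE 0.30, edgeR adjusted p = 0.843). Cyba KO replicate 2 lay above WT replicate 1, so the groups overlapped. Without Cyba KO replicate 1 the log2 fold change was -0.18, and without WT replicate 2 it was -0.09. At the other end of the class, Nars stood at 269 and 236 CPM in Cyba KO mice and 264 CPM in each WT mouse. Wars (tryptophan), whose gene is known to be induced by interferon, stood at 73.5 and 69.9 CPM in Cyba KO mice, against 76.8 and 77.6 CPM in WT mice (log2 fold change -0.11, SE 0.11). The 8 tested genes of the type I interferon response were all higher in the Cyba KO libraries, at a median log2 fold change of 0.85. Wars differed by about its SE, and a link to these genes was not tested. Its mitochondrial counterpart Wars2 stood at 12.6 and 13.8 CPM in Cyba KO mice and 11.7 and 16.8 CPM in WT mice, with overlapping groups.

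**Figure D1:**
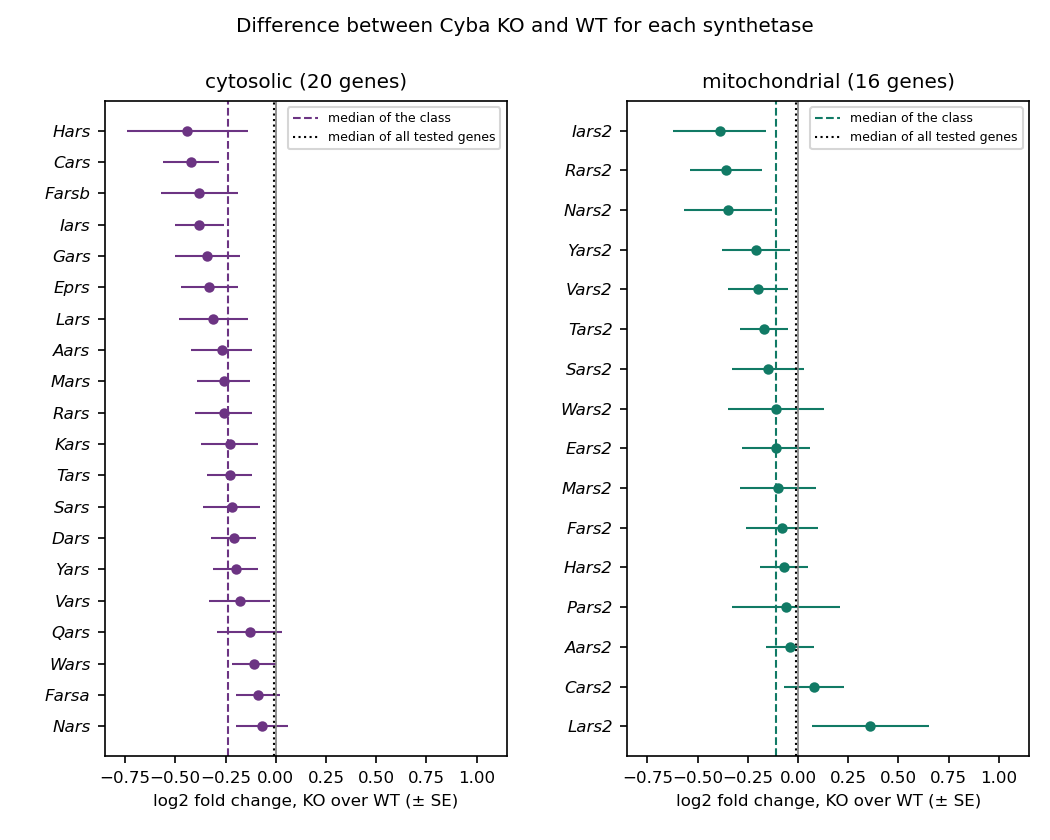
The log2 fold change of each synthetase, Cyba KO over WT, is plotted with its SE from edgeR (2 mice per genotype), with cytosolic genes on the left and mitochondrial genes on the right. All 20 cytosolic points lie below 0 around a class median of -0.24, and the mitochondrial points spread from -0.39 (Iars2) to 0.36 (Lars2) around -0.11.

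Mitochondrial synthetases had a median nearer to 0 than the cytosolic ones and a wider range, and a difference between the classes was not tested. Of 16 members 14 had a log2 fold change below 0, the median was -0.11, or 7.26% lower, and both Cyba KO libraries lay below both WT libraries for 5. Over all tested genes 51.0% were below 0 and 16.1% were separated in that way. Without Lars2 the mitochondrial median was again -0.11, with a range from -0.39 to 0.08. Rars2 (arginine) stood at 33.8 and 39.8 CPM in Cyba KO mice, against 41.4 and 52.9 CPM in WT mice. Its groups did not overlap (log2 fold change -0.36, SE 0.18, edgeR adjusted p = 0.843). Iars2 (isoleucine; chr1:185284726-185329396, minus strand) stood at 115 and 158 CPM in Cyba KO mice and 153 and 206 CPM in WT mice, with overlapping groups (log2 fold change -0.39, SE 0.23). Of the exonic bases of Iars2, 24.2% are shared with annotated genes on the other strand, mostly Rab3gap2, and the strand setting of the counting was not given. Nars2 (asparagine) stood at 14.9 and 17.2 CPM in Cyba KO mice, against 17.2 and 23.6 CPM in WT mice (log2 fold change -0.35, SE 0.22). Its groups were separate by less than the rounding of these values. Tars2 (threonine) stood at 76.7 and 76.8 CPM in Cyba KO mice and 81.9 and 90.6 CPM in WT mice (log2 fold change -0.17, SE 0.12). Vars2 (valine) stood at 42.0 and 50.7 CPM in Cyba KO mice and 50.1 and 56.4 CPM in WT mice (log2 fold change -0.20, SE 0.15), where Cyba KO replicate 2 was just above WT replicate 1. Mars2 (methionine) stood at 34.0 and 44.5 CPM in Cyba KO mice and 38.5 and 45.9 CPM in WT mice, again with overlap (log2 fold change -0.10, SE 0.19). These values moved with single libraries. Without WT replicate 2 the log2 fold change was -0.17 for Rars2, -0.16 for Iars2, -0.10 for Nars2, -0.09 for Tars2, -0.11 for Vars2 and 0.03 for Mars2. Without Cyba KO replicate 1 it was -0.23 for Rars2, -0.17 for Iars2, -0.06 for Vars2 and 0.09 for Mars2. Without Cyba KO replicate 2 it was -0.64 for Iars2, -0.34 for Vars2 and -0.31 for Mars2, and without WT replicate 1 it was -0.55 for Nars2 and -0.22 for Mars2. The members above 0 were Cars2 (cysteine, log2 fold change 0.08) and Lars2 (leucine, 0.36).

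The order of the 4 libraries was much the same from gene to gene. WT replicate 2 was the highest library for 18 of 20 cytosolic and 13 of 16 mitochondrial members, and Cyba KO replicate 1 was the lowest for 15 and 12. The median deviation of the cytosolic genes from their own mean over the 4 libraries was -0.18 and -0.07 on the log2 scale in Cyba KO replicates 1 and 2, against 0.03 and 0.23 in WT replicates 1 and 2. For the mitochondrial genes it was -0.14 and 0.01 in the Cyba KO libraries, against -0.02 and 0.18 in the WT libraries. The inner pair, Cyba KO replicate 2 and WT replicate 1, was therefore close together in both classes, and for the mitochondrial class it was in the opposite order. Without WT replicate 2 the cytosolic median log2 fold change was -0.14 with 19 of 20 below 0, and without Cyba KO replicate 1 it was -0.18 with 20 below 0. It was -0.31 without Cyba KO replicate 2 and -0.35 without WT replicate 1. The mitochondrial median was -0.04 with 10 of 16 below 0 without WT replicate 2, and -0.03 with 12 below 0 without Cyba KO replicate 1. It was -0.20 without Cyba KO replicate 2 and -0.25 without WT replicate 1.

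**Figure D2:**
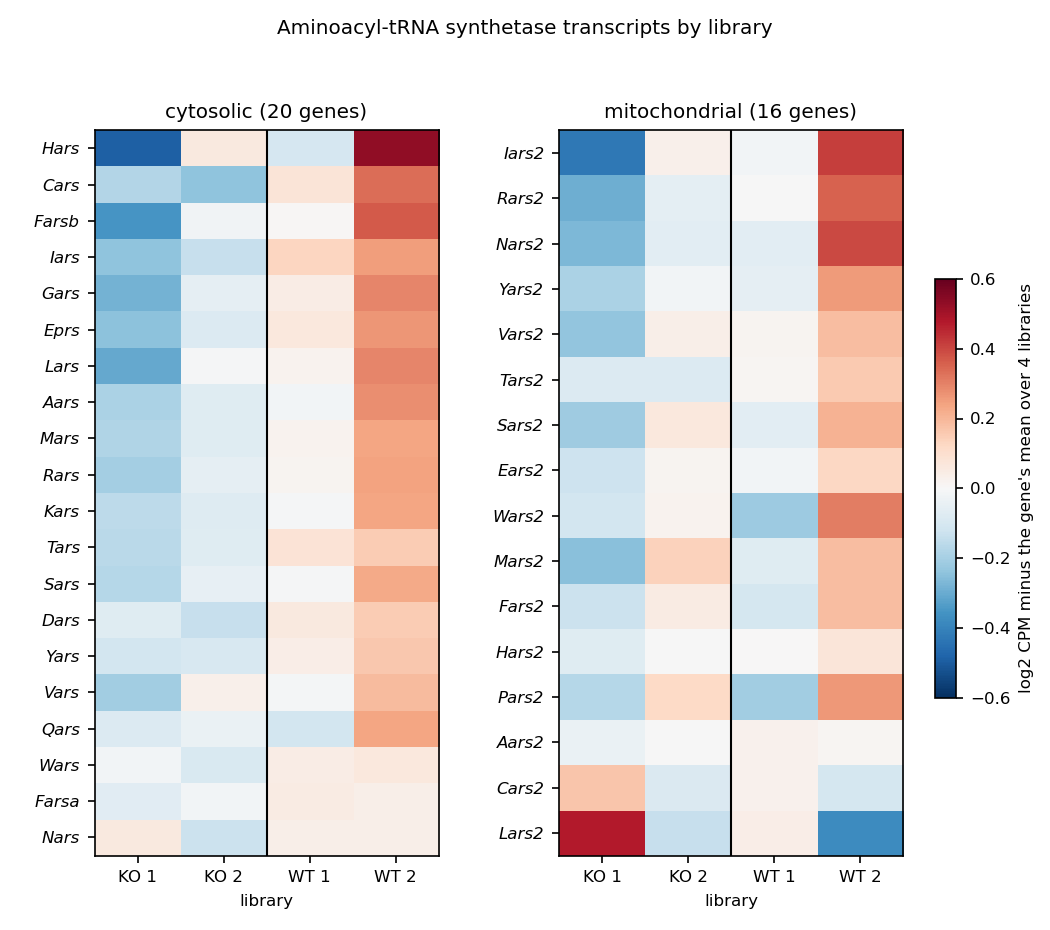
Each cell shows log2 CPM of a synthetase in a library minus that gene's mean over the 4 libraries, with Cyba KO replicates 1 and 2 left of WT replicates 1 and 2. WT replicate 2 is the highest library for 18 of 20 cytosolic genes and Cyba KO replicate 1 the lowest for 15, whereas Lars2 and Cars2 run the other way.

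WT replicate 2 was also highest and Cyba KO replicate 1 lowest in gene lists for erythroid cells, cell division and ribosome production. The 9 erythroid markers (Klf1, Tfrc, haemoglobin genes and others) summed to 1008 and 2486 CPM in Cyba KO replicates 1 and 2, against 1937 and 3964 CPM in WT replicates 1 and 2. All 9 had log2 fold changes below 0 (median -0.76), with overlapping groups in every case. The 8 genes of MYC and the nucleolus, where ribosomes are made, summed to 4147 and 5004 CPM in Cyba KO mice, against 5115 and 6658 CPM in WT mice. All 8 were below 0 (median -0.35), and Odc1, a MYC target that makes polyamines, stood at 313 and 298 CPM in Cyba KO mice and 391 and 416 CPM in WT mice. The 10 cell division genes summed to 3474 and 4084 CPM in Cyba KO mice and 3884 and 5091 CPM in WT mice, with 9 below 0 (median -0.17). The sum of the progenitor markers was highest in Cyba KO replicate 1 and lowest in WT replicate 2. It was 15803 and 10729.6 CPM in Cyba KO mice against 11923 and 6247 CPM in WT mice. Most of it came from Mpo, at 10294 and 6959 CPM in Cyba KO mice and 7971 and 3907 CPM in WT mice. By gene, 7 of 9 were above 0 with a median log2 fold change of only 0.10, and Cyba KO replicate 1 was the highest library for 5. Of the markers of other cells, 6 of 6 monocyte genes (summed to 2825 and 2346 CPM in Cyba KO mice and 1909 and 1246 CPM in WT mice) and 8 of 8 neutrophil genes (852 and 3306 CPM in Cyba KO mice and 338 and 939.8 CPM in WT mice) were above 0. The 7 B-cell markers, whose mature carriers the depletion removes, summed to 65.4 and 70.1 CPM in Cyba KO mice and 43.5 and 27.5 CPM in WT mice. Plasma cell genes (3568 and 1279 CPM in Cyba KO mice, 2061 and 517 CPM in WT mice) were above 0 in 6 of 6. T and natural killer cell genes (265 and 148 CPM in Cyba KO mice, 174 and 73.5 CPM in WT mice) were too. Both sums were highest in Cyba KO replicate 1 and lowest in WT replicate 2. Of 6 megakaryocyte genes, 5 were below 0 (median -0.43). No marker in these lists was at 0 reads in any library. The part of these cell types and of cell division in the synthetase values was not tested. In bulk RNA, fewer cells of a type and less RNA per cell cannot be told apart.

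**Figure D3:**
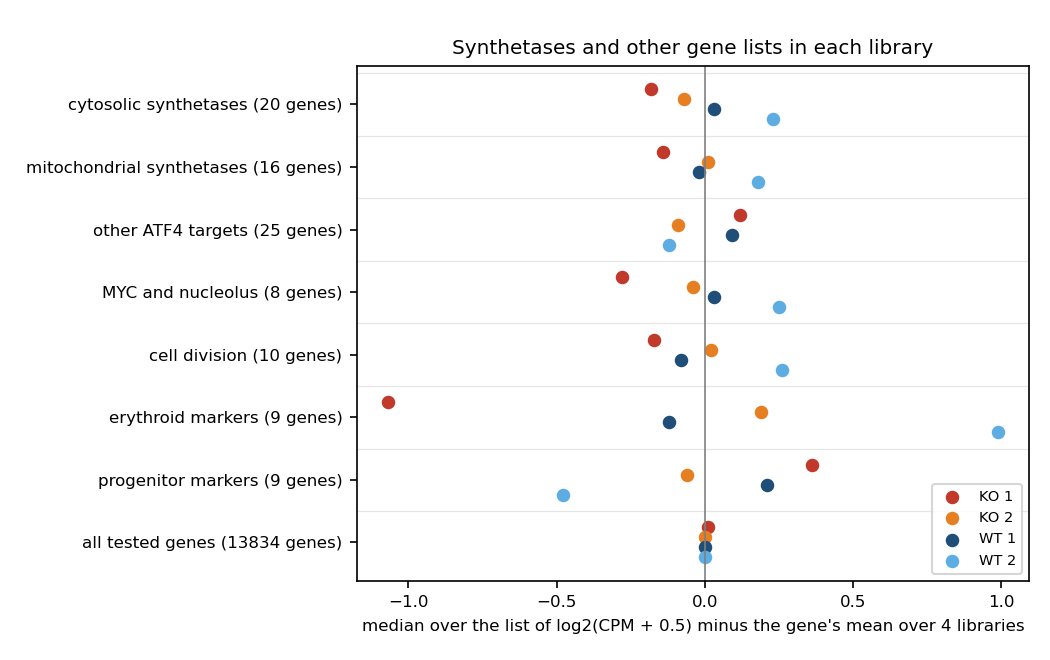
Points give, for each list and library, the median over genes of log2(CPM + 0.5) minus the gene's mean over 4 libraries, with the number of tested genes beside the name. Both synthetase classes have WT replicate 2 highest and Cyba KO replicate 1 lowest, as have the MYC and nucleolus, cell division and erythroid lists, while the 25 other ATF4 targets do not.

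Enzymes inside and outside the multi-synthetase complex were both below 0, and a difference between these groups was not tested. The 8 enzymes of the complex were all below 0 with a median log2 fold change of -0.26, and 7 had both Cyba KO libraries below both WT libraries. The 12 free enzymes were all below 0 with a median of -0.23, and 9 were separated in that way, against 16.1% of all tested genes and 23.2% of those at least as high as the lowest cytosolic member. The 3 scaffolds of the complex had a median of -0.29. Eef1e1 (AIMP3) stood at 35.8 and 42.3 CPM in Cyba KO mice, against 45.1 and 59.7 CPM in WT mice (log2 fold change -0.42, SE 0.19). Aimp2 stood at 25.7 and 27.8 CPM in Cyba KO mice, against 31.9 and 33.5 CPM in WT mice (log2 fold change -0.29, SE 0.13), and Aimp1 stood at 53.7 and 60.7 CPM in Cyba KO mice and 58.7 and 68.5 CPM in WT mice. Of these scaffolds Aimp1 had overlapping groups. By the architecture of the catalytic domain, 16 of 18 class I enzymes (median -0.20) and 17 of 17 class II enzymes (median -0.21) were below 0, over both compartments and leaving out Eprs, which holds both.

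Genes that ATF4 is known to drive did not share a direction. The 12 synthetases commonly listed as its targets had a median log2 fold change of -0.26, all below 0, and 11 had both Cyba KO libraries below both WT libraries. The 8 cytosolic synthetases not so listed had a median of -0.22, again all below 0, and 5 were separated in that way. The share was 16.1% of all tested genes and 23.2% of those at least as high as the lowest cytosolic member. The 25 tested other ATF4 targets, such as amino acid transporters and enzymes of serine synthesis, were split into 13 above and 12 below 0, with a median of 0.02. Among these, the cationic amino acid transporter gene Slc7a1 stood at 105 and 115 CPM in Cyba KO mice, against 142 and 133 CPM in WT mice (log2 fold change -0.32, SE 0.12, edgeR adjusted p = 0.843). Slc7a5, the large neutral amino acid transporter, stood at 145 and 159.8 CPM in Cyba KO mice and 183 and 192 CPM in WT mice (log2 fold change -0.30, SE 0.12). These transporters, which bring in amino acids, had the direction of the synthetases. Cebpb, a transcription factor that drives myeloid differentiation, was at 37.5 and 30.9 CPM in Cyba KO mice, against 23.9 and 10.8 CPM in WT mice (log2 fold change 0.98, SE 0.41). Trib3 was below the filter on low counts. In a list of amino acid sensors and stress kinases, 5 of 7 genes were below 0 (median -0.11). Some of these kinases respond to signals other than amino acids, so the count does not describe amino acid sensing alone. Gcn1l1, the activator of the kinase GCN2, stood at 167 and 166 CPM in Cyba KO mice, against 194 and 191 CPM in WT mice (log2 fold change -0.21, SE 0.11). The kinase gene Eif2ak3 (PERK) stood at 53.1 and 45.6 CPM in Cyba KO mice and 47.8 and 36.3 CPM in WT mice, with overlap. Rraga, a GTPase that signals amino acid supply to mTORC1, averaged 39.8 ± 0.295 CPM in Cyba KO mice and 43.5 ± 0.213 CPM in WT mice (SD, n = 2 each).

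Other genes of tRNA charging and its use were also below 0. In the cytosol, 13 of 13 partners of charging and delivery were below 0 (median log2 fold change -0.18). So were 51.0% of all tested genes and 61.8% of those at least as high as the lowest cytosolic synthetase. The 13 include the 3 scaffolds given above, and Xpot is also among the other ATF4 targets. For 5 of the 13, with Aimp2 and Eef1e1 among them, both Cyba KO libraries lay below both WT libraries. The share was 16.1% of all tested genes and 23.2% of those at least as high. Xpot, which exports tRNA from the nucleus, stood at 173 and 169 CPM in Cyba KO mice, against 194 and 198 CPM in WT mice (log2 fold change -0.20, SE 0.11). In mitochondria, 15 of 15 tested genes of charging and translation were at or below 0 with a median of -0.17, and 5 were separated in that way, against the same 16.1% of all tested genes. Gatc, a subunit of the amidotransferase that makes glutaminyl-tRNA in mitochondria, stood at 25.6 and 29.4 CPM in Cyba KO mice, against 31.3 and 37.2 CPM in WT mice (log2 fold change -0.32, SE 0.16). Mto1, which modifies mitochondrial tRNA, stood at 32.6 and 35.1 CPM in Cyba KO mice, against 38.2 and 43.2 CPM in WT mice (log2 fold change -0.26, SE 0.13). Both had separate groups, and neither passed the test. Ptcd3, a protein of mitochondrial ribosomes, stood at 98.7 and 123 CPM in Cyba KO mice and 119.6 and 163 CPM in WT mice.

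Levels of different synthetases were compared per length. As repaired TPM, settled for 18 cytosolic and 12 mitochondrial members, Lars2 was highest. Below it came the cytosolic genes Qars (glutamine), with 224 and 255 TPM in Cyba KO mice and 240.4 and 291 TPM in WT mice, and Vars (valine), with 163 and 268 TPM in Cyba KO mice and 221 and 292 TPM in WT mice. Their values overlap each other, so their order is not settled. Kars followed with 91.5 and 113 TPM in Cyba KO mice and 111 and 135 TPM in WT mice. Wars had the lowest mean TPM of the cytosolic genes with a settled TPM (30.4 over the 4 libraries), at 27.9 and 29.6 TPM in Cyba KO mice and 31.3 and 33.0 TPM in WT mice. Lars (leucine) overlapped it, at 23.9 and 34.0 TPM in Cyba KO mice and 32.9 and 40.4 TPM in WT mice. Among mitochondrial genes Tars2, at 43.3 and 45.3 TPM in Cyba KO mice and 44.5 and 56.6 TPM in WT mice, and Rars2, at 20.4 and 40.5 TPM in Cyba KO mice and 42.0 and 49.0 TPM in WT mice, came after Lars2 with overlapping ranges. Mars2 was the lowest of the mitochondrial genes with a settled TPM, at 2.33 and 3.55 TPM in Cyba KO mice and 2.91 and 3.54 TPM in WT mice. The TPM of Cars, Tars, Aars2, Pars2, Vars2 and Wars2 could not be settled. The order differed between the measures: as CPM per kb of the longest coding transcript, Qars averaged 63.1 over the 4 libraries, below Kars at 106. In that measure Pars2 and Wars2, which had no settled TPM, averaged 2.64 and 3.11, below Mars2 at 3.61. The distance between the 2 Cyba KO mice differed too. In CPM they stood at 33.8 and 39.8 for Rars2 and at 353 and 416 for Vars, closer together than in TPM. The cause was not tested.

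For most amino acids the cytosolic enzyme had the higher transcript level per kb, and the distance between the pair varied widely. In 14 of 16 pairs the cytosolic gene was higher in all 4 libraries. The ratio of the cytosolic to the mitochondrial gene, in CPM per kb, ran from 22.1 to 30.8 for Eprs over Pars2 and from 15.4 to 24.9 for Nars over Nars2, but from 1.08 to 1.20 for Tars over Tars2. The 2 exceptions were cysteine, with ratios of Cars over Cars2 of 0.557 and 0.635 in Cyba KO mice and 0.731 and 0.956 in WT mice, and leucine, where the ratio of Lars over Lars2 was between 0.0283 and 0.0772. The pairs were also compared by their difference between genotypes. With differences rounded to 2 decimals, the cytosolic gene had the lower log2 fold change in 9 of 16 pairs. Farsa against Fars2 and Wars against Wars2 rounded to 0.0 and were not counted. The median of the rounded differences, cytosolic minus mitochondrial, was -0.07. The pairs for leucine (-0.66), cysteine (-0.50) and histidine (-0.37) lay on 1 side and that for asparagine (0.28) on the other. Hars and Hars2 are head to head and share 195 exonic bases on opposite strands, so some of their reads could not be told apart without strand.

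**Figure D4:**
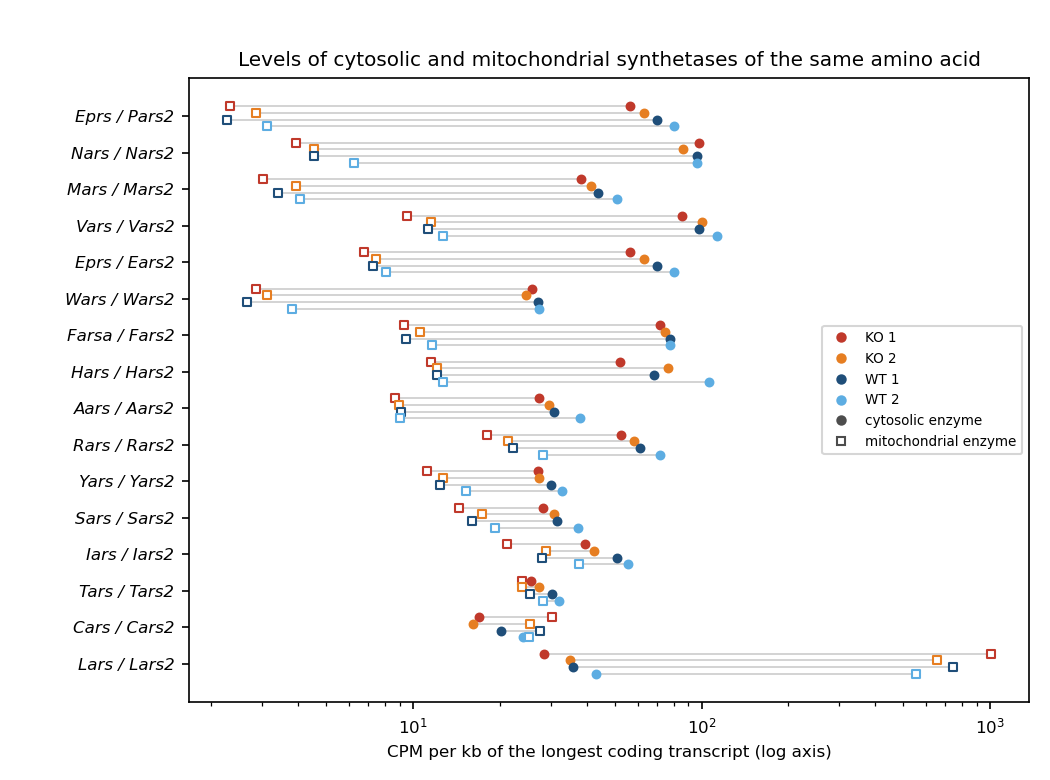
Filled circles are the cytosolic and open squares the mitochondrial synthetase for the same amino acid, in CPM per kb of the longest coding transcript on a log axis, with 1 line per library (Cyba KO replicates above WT replicates). The cytosolic gene is to the right in all 4 libraries for 14 of 16 pairs, and Lars2 and Cars2 are the exceptions.

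Lars2 stood apart from all other members. Lars2 (ENSMUSG00000035202, chr9:123366927-123462666, plus strand) stood at 3914 and 2552 CPM in Cyba KO mice, against 2889 and 2162 CPM in WT mice. The groups overlapped, since WT replicate 1 was above Cyba KO replicate 2, and the difference was not called (log2 fold change 0.36, SE 0.29, edgeR adjusted p = 0.843). Without Cyba KO replicate 1 the log2 fold change was 0.03. The other 15 mitochondrial members together summed to 554 and 634 CPM in Cyba KO mice and 624 and 742 CPM in WT mice, less than Lars2 alone in each library. The full-length Lars2 transcript has 3894 bases, and its coding part ends at base 2908. Bases 3233 to 3329 behind it match the annotated gene AA474408 at 94.8% identity over 97 aligned bases, and bases 3278 to 3349 match Gm15564 at 98.6% over 72 bases. A shorter stretch, bases 3163 to 3212, matches AA474408 at 96.0% over 50 bases. Those genes were not analysed here, and how many Lars2 reads came from these stretches was not measured. The count of Lars2 is uncertain for that reason.

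The ratio of cytosolic to mitochondrial transcripts depended on Lars2. Summed over members with a settled TPM, the cytosolic class had 1219 and 1579 TPM in Cyba KO mice and 1519.8 and 1839 TPM in WT mice. The mitochondrial class had 1069 and 927 TPM in Cyba KO mice and 969 and 851 TPM in WT mice. The ratio was 1.14 and 1.70 in Cyba KO mice (mean 1.42 ± 0.398, SD, n = 2) and 1.57 and 2.16 in WT mice (1.86 ± 0.419, SD, n = 2), with overlap, and the log2 ratio of the means was -0.39. Without Lars2, an alternative chosen after the data were seen, it was 5.50 and 5.57 in Cyba KO mice (5.53 ± 0.048, SD, n = 2) and 5.41 and 5.66 in WT mice (5.54 ± 0.175, SD, n = 2). The log2 ratio of the means was then 0.00. As CPM per kb over all members, the ratio without Lars2 was 5.71 and 5.63 in Cyba KO mice and 5.95 and 5.94 in WT mice. Both Cyba KO values were then below both WT values, at a log2 ratio of -0.07.

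**Figure D5:**
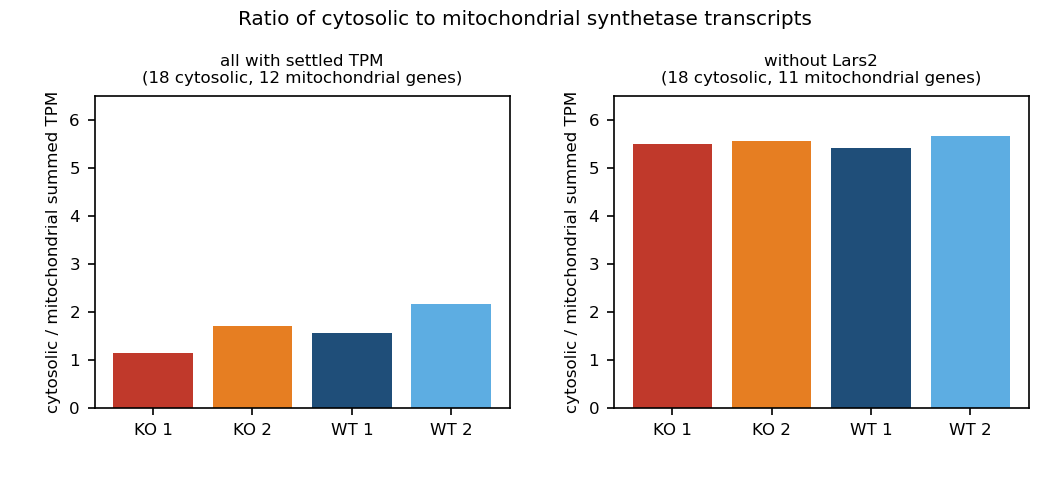
Bars give the summed TPM of cytosolic over mitochondrial synthetases in each library, for members with a settled TPM (left) and without Lars2 (right), with Cyba KO libraries left of WT libraries. With Lars2 the ratio is between 1.14 and 2.16 and the genotypes overlap, and without it all 4 libraries lie between 5.41 and 5.66.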

How the data were processed

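RNA from lineage-negative marrow of 4 mice was sequenced. Salmon, DESeq2 and the build GRCm38 are named in the submitters' processing notes. Versions, the annotation and the strand setting are not given in the sources used here. Per the file headers, the authors deposited a table of estimated counts and a table of TPM for each library, with 22520 genes and 4 lanes. Both kinds of table, TPM and other values alike, are damaged as deposited by the authors: the decimal point is missing from numbers above 1 that had 3 or more decimals. More than 1 reading was possible for 24.8% of 360320 estimated counts and for 53.2% of TPM values. The likeliest reading was taken from the lanes of a library (negative binomial), the tie of count to TPM by transcript length, and the levels in the other libraries (t distribution, 3 degrees of freedom, scale 0.2). Genes whose totals were uncertain by over 5% and 1 read were left out, and 22104 stayed. Of the 36 synthetases, 18 had no count with more than 1 reading. Without the tie to other libraries 31 were kept, all but Tars, Yars, Cars2, Iars2 and Wars2. The totals of those members thus rest in part on levels in the other libraries, of either genotype. A TPM was settled where other readings had at most 5% of the weight. Lanes were summed and rounded.

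GENCODE vM21 gave symbols and positions for 22384 identifiers. The test was edgeR 4.0.16 (R 4.3.3), quasi-likelihood, with TMM factors, the default filter by genotype (13834 genes), two-sided p-values, Benjamini-Hochberg adjustment and a threshold of 0.05. Groups came from the titles. SE is the size of the log2 fold change over the root of F. Alternatives were DESeq2 1.42.0, limma 3.58.1 (voom, or trend on log2 TPM plus 1 or 0.1), a likelihood ratio test, other factors, filters and repairs, a replicate block and leaving out each library. Transcripts were matched with BLAST 2.17.0. Repair and test were also run on simulated data, with libraries drawn independently and decimal points removed by the rule that the repair assumes. That run could not show whether this rule holds for the deposited values. Named by rule were, per class, the 5 members with the smallest p, the 3 with the highest and the 1 with the lowest TPM, with Wars, Wars2, Kars and Gars, and up to 3 genes of each other list. Single values of some listed genes are not reported here. Hars, Nars and Cars2 were added after their values were seen. Members and lists were chosen with earlier results of these data known.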

Additional observations from a re-analysis of the deposited data

How the results depend on the processing

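The cytosolic median stayed between -0.35 and -0.14 when single libraries were left out and between -0.32 and -0.24 under the 13 other refits. The mitochondrial median was between -0.25 (without WT replicate 1) and -0.03 when single libraries were left out. Of 36 members, 29 had 1 direction in all 17 refits that gave them a value, among them 18 of the 20 cytosolic ones. Against 0 genes with edgeR's quasi-likelihood test, where 450 of 13834 had an unadjusted p under 0.05, DESeq2 called 31, the likelihood ratio test 29 and limma-trend on log2(TPM + 0.1) called 1. Leaving out single libraries gave 0 to 3. Limma-voom called 0. With the replicate number as a block 1194 of 13834 genes passed (759 higher and 435 lower in Cyba KO). Among them were 5 of the 36 synthetases, Farsb, Gars, Hars, Iars and Iars2, all of them lower. The labels do not say that equal numbers share a batch, litter or day. Across genes, libraries of equal number deviated together with a correlation of 0.676, from 2 pairs. No other setting called a synthetase.

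Directions turned for 7 members. Cars2 was at -0.01 with either pseudocount on log2 TPM. Leaving out single libraries gave -0.04 (without Cyba KO replicate 1) to 0.20 for Cars2, -0.22 to 0.07 for Fars2, -0.31 to 0.09 for Mars2, -0.27 to 0.19 for Pars2, -0.34 to 0.17 for Wars2, -0.29 to 0.05 for Qars and -0.15 to 0.02 for Nars. Without Cyba KO replicate 1, Fars2 stood at 0.02, Mars2 at 0.09 and Pars2 at 0.09. Without Cyba KO replicate 2, Nars stood at 0.02. Without WT replicate 2, Qars stood at 0.05, Fars2 at 0.07, Mars2 at 0.03, Pars2 at 0.19 and Wars2 at 0.17. The log2 class ratio of -0.39 was 0.00 without Lars2, -0.46 per kb, -0.07 per kb without Lars2, and between -0.71 and -0.13 without single libraries. The cause was not tested except for Lars2, whose removal is the change itself.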
